A study of Mus musculus with 10 samples.

Results

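The 10 genes described here mark the fat cell, and were taken by symbol (*Adipoq*, *Plin1*, *Cidec*, *Fabp4*, *Lep*, *Retn*, *Pparg*, *Lpl*, *Car3* and *Lipe*) from 55401 gene rows. All 10 symbols were found, each on a single row. They were read in 10 subcutaneous B16F10 melanomas collected on day 15, with 5 tumors grown from *Mir25* knockout (KO) cells and 5 from cells carrying a non-targeting control (NTC) guide. The melanoma line B16F10 was edited with CRISPR-Cas9 before injection, and the fat, vessels and immune cells of a tumor come from its unedited host. Every mouse was a female C57BL/6J of 9 to 12 weeks given the Comb treatment, which was GVAX (1000000 irradiated B16-GM-CSF cells in the opposite flank on days 1 and 4) plus αPD-1 antibody (10 mg/kg on days 6, 9 and 12). There were no tumors without treatment. The labels give 50000 injected tumor cells and the methods 500000. Which knockout clone was used is not given in the sources used here, so the KO group may stand for a single line. The *Mir25* row held 0 reads in all 10 libraries, and therefore could not check the labels.

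Adipocytes store triglyceride in a single large droplet under the skin, where these tumors grew. The nuclear receptor PPARγ, encoded by *Pparg*, switches on most of the adipocyte programme. Lipoprotein lipase (*Lpl*) and the fatty acid binding protein *Fabp4* bring fatty acids in, perilipin 1 (*Plin1*) and *Cidec* coat and enlarge the droplet, and hormone-sensitive lipase (*Lipe*) releases the fat again. Adiponectin (*Adipoq*), leptin (*Lep*) and resistin (*Retn*) are secreted hormones, and *Car3* is an abundant carbonic anhydrase. *Adipoq*, *Plin1*, *Cidec*, *Lep*, *Retn* and *Car3* are largely restricted to adipocytes, although *Car3* is also a skeletal muscle gene. *Fabp4*, *Lpl* and *Pparg* are in addition expressed by macrophages, *Fabp4* by capillary endothelium, and *Lipe* by several other cell types.

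Reads assigned to genes numbered 23243707 to 28682130 per library in 9 tumors and 11896643 in NTC tumor 1. That library stood apart. Reads outside genes made up 42.9% of it, where the other 9 ranged from 17.5% to 28.2%, and 33193 of its genes had a read, where the other 9 ranged from 22192 to 25435. Fold changes of the 10 genes are therefore given over all 10 tumors and over the 9 tumors without it, and those of other genes over 10 tumors unless both are given. All 10 melanoma cell markers checked, such as *Pmel* and *Tyr*, had at least 10 reads in every tumor and summed to 14447 to 26798 CPM, the lowest being NTC tumor 1. Levels are CPM, read counts divided by the TMM-scaled library size, and 1 CPM stood for 7.42 to 31.7 reads. The TMM factor was 0.628 in NTC tumor 1 and 0.968 to 1.11 in the other 9. Scaling therefore raised the levels of NTC tumor 1 beside those by library totals alone.

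No adipocyte gene was called as changed in *Mir25* KO tumors. A gene was called by edgeR's quasi-likelihood test at a Benjamini-Hochberg adjusted p under 0.05 with an absolute log2 fold change above 1, which 0.0190% of the 15821 genes tested met over all 10 tumors (*Btn2a2*, *Olfml1* and *Wnk3*). The count was 0 of the 9 adipocyte genes that passed the low-count filter, and 0 of the 9 also had an unadjusted p under 0.05, against 8.85% of all genes. Over 9 tumors the count was again 0 of 9, where 0.106% of 16078 genes were called, and 3 of the 9 (*Lpl*, *Fabp4* and *Lipe*) had an unadjusted p under 0.05, against 20.1% of all genes in either direction and 12.0% higher in KO. The KO and NTC values overlapped for all 10 genes, with and without NTC tumor 1, whereas 2.34% of genes tested over 10 tumors and 6.30% over 9 did not overlap.

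The differences between single tumors were wider than those between the groups. The 6 adipocyte-restricted genes went from 7 reads or fewer in NTC tumors 2 and 4 to 1.35 CPM or more in NTC tumor 1, and within KO the highest tumor held 7.37 (*Car3*) to 36.0 (*Lep*) times the level of the lowest. These genes are described first, by role, followed by the 4 genes shared with other cells.

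**Figure D1:**
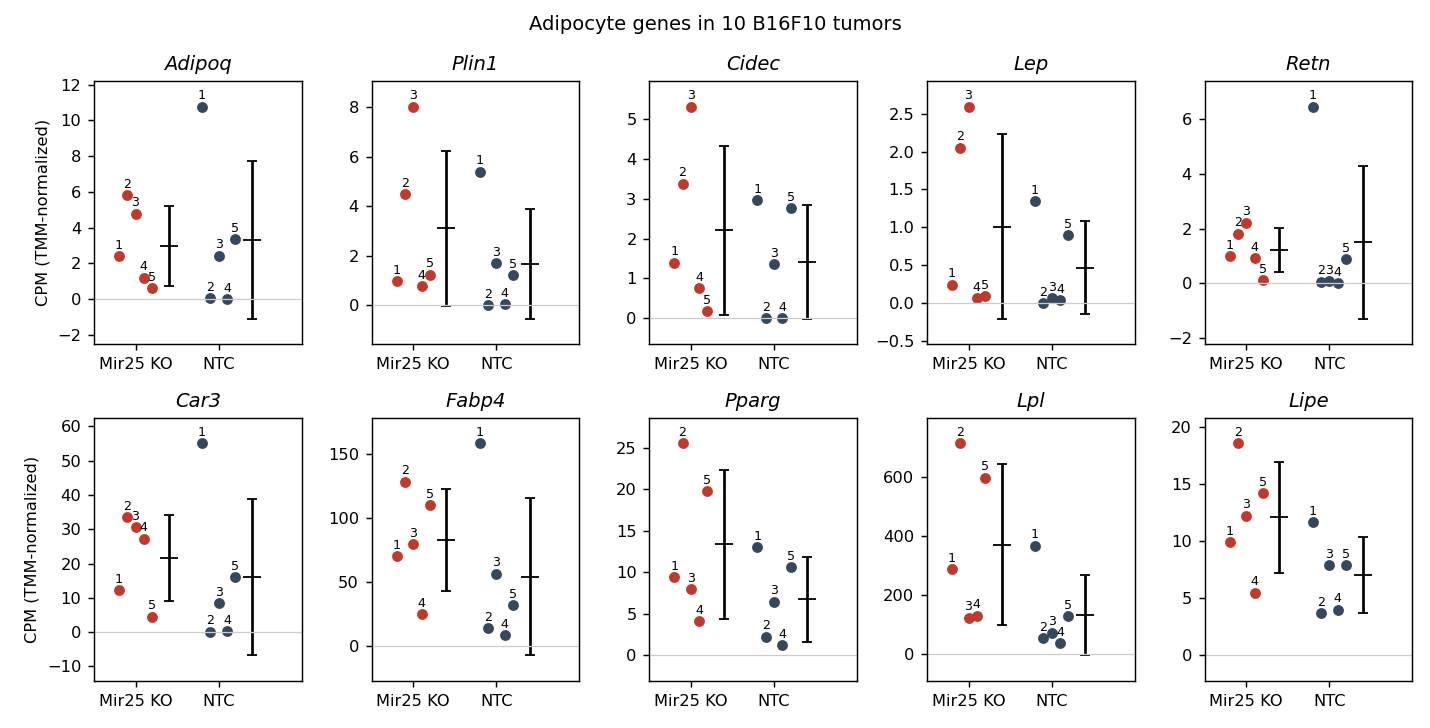
Level of each adipocyte gene in every tumor, in CPM on a linear axis, with the replicate number above each point and the mean ± SD of the group beside it. NTC tumors 2 and 4 lie at or near 0 for the 6 genes from *Adipoq* to *Car3*. Under TMM scaling NTC tumor 1 is the highest tumor for *Adipoq*, *Retn*, *Car3* and *Fabp4*, but by library totals not for *Fabp4*.

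Adiponectin is made almost only by adipocytes. *Adipoq* (chr16:23146536-23158028 of GRCm38, plus strand) stood at 2.42, 5.81, 4.78, 1.19 and 0.623 CPM in KO tumors 1 to 5, from 59, 153, 142, 33 and 14 reads. NTC tumors 1 to 5 were at 10.8, 0.033, 2.43, 0 and 3.33 CPM, from 80, 1, 77, 0 and 96 reads. The highest and the lowest tumors were thus both NTC tumors, and every KO tumor lay between them. The 0 reads of NTC tumor 4 allow a level of up to 0.122 CPM (3 reads, counting error only). Means were 2.97 ± 2.25 CPM in KO and 3.31 ± 4.42 in NTC (SD, n = 5 each), and the log2 fold change was -0.09 ± 1.20 (SE, edgeR adjusted p = 0.987). Over 9 tumors it was 1.00 ± 1.12 (edgeR adjusted p = 0.634), so the sign of *Adipoq* turned without NTC tumor 1. It also turned without KO tumor 4 (0.11) or KO tumor 5 (0.17), and to 0.28 when libraries were scaled by their totals alone.

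Leptin signals the size of the fat store to the brain. *Lep* (chr6:29060220-29073877, plus strand) was the sparsest of the 10 genes, with 6, 54, 77, 2 and 2 reads in KO tumors 1 to 5 and 10, 0, 2, 1 and 26 in NTC tumors 1 to 5. KO tumors 2 and 3 were the highest at 2.05 and 2.59 CPM, followed by NTC tumors 1 and 5 at 1.35 and 0.902. The remaining 6 tumors were at 0.246 CPM or below, in both groups. *Lep* did not pass the low-count filter, and a fit without the filter gave a log2 fold change of 1.37 ± 1.12 over 10 tumors (SE, edgeR adjusted p = 0.521) and 1.99 ± 1.15 over 9 (edgeR adjusted p = 0.473).

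Resistin is an adipocyte hormone in mice. *Retn* (chr8:3655770-3660110, plus strand) was at 0.984, 1.82, 2.22, 0.937 and 0.133 CPM in KO tumors 1 to 5. The NTC tumors, 1 to 5, were at 6.47, 0.066, 0.095, 0 and 0.902 CPM. NTC tumor 1 was above every other tumor, and 4 of the 5 KO tumors were above the other 4 NTC tumors. KO against NTC gave a log2 fold change of -0.12 ± 1.30 over 10 tumors (SE, edgeR adjusted p = 0.985) and 2.16 ± 1.01 over 9 (edgeR adjusted p = 0.264). As for *Adipoq*, it turned positive, to 0.43, with scaling by library totals, and to 0.17 without KO tumor 5. It was 0.046 with no filter, 1.69 with replicate numbers as a block and 2.18 with limma voom.

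The droplet proteins were spread in the same way. *Plin1* (chr7:79720218-79732903, minus strand), whose product guards the droplet surface from lipases, was at 0.984, 4.48, 8.02, 0.793 and 1.25 CPM in KO tumors 1 to 5. NTC tumors 1 to 5 were at 5.39, 0, 1.70, 0.041 and 1.21 CPM. KO tumor 3, with 238 reads, was the highest of all, and only 1 of the 5 KO tumors lay above every NTC tumor. By library totals KO tumor 2 did so too, at 4.50 CPM against 3.36 in NTC tumor 1. The fitted log2 fold change was 1.01 ± 1.18 over 10 tumors (SE, edgeR adjusted p = 0.829) and 2.04 ± 1.13 over 9 (edgeR adjusted p = 0.333). Without KO tumor 3 it was 0.27.

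*Cidec* (chr6:113424634-113435760, minus strand), which promotes the fusion of droplets into one, was at 1.39, 3.38, 5.32, 0.757 and 0.178 CPM in KO tumors 1 to 5. The NTC tumors, 1 to 5, were at 2.96, 0, 1.36, 0 and 2.78 CPM. Again KO tumors 2 and 3 were the highest and NTC tumors 2 and 4 the lowest, with KO tumor 5 next at 4 reads. In the fit the log2 fold change was 0.70 ± 1.21 over 10 tumors (SE, edgeR adjusted p = 0.884) and 1.08 ± 1.24 over 9 (edgeR adjusted p = 0.644). It was 0.06 without KO tumor 3, and 0.36 without NTC tumor 2 or NTC tumor 4.

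*Car3* (chr3:14863512-14872523, plus strand), which hydrates carbon dioxide, had the most reads of the restricted genes and also the highest mean level per kilobase of exon. It was at 12.3, 33.5, 30.7, 27.3 and 4.54 CPM in KO tumors 1 to 5 and at 55.1, 0.164, 8.58, 0.285 and 16.03 CPM in NTC tumors 1 to 5. The lowest tumor, NTC tumor 2, held 5 reads and the highest held 336 times its level. Between the groups the log2 fold change was 0.47 ± 1.15 over 10 tumors (SE, edgeR adjusted p = 0.922) and 1.77 ± 1.07 over 9 (edgeR adjusted p = 0.372). It was 0.15 without NTC tumor 2 and 0.16 without NTC tumor 4.

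Summed over *Adipoq*, *Plin1*, *Cidec*, *Lep* and *Retn*, the level was 6.03, 17.5, 22.9, 3.75 and 2.27 CPM in KO tumors 1 to 5. In NTC tumors 1 to 5 it was 26.9, 0.0985, 5.65, 0.0813 and 9.12 CPM. In order, NTC tumor 1 came first, followed by KO tumors 3 and 2, NTC tumor 5, KO tumor 1, NTC tumor 3 and KO tumors 4 and 5, with NTC tumors 2 and 4 last. The medians of the groups, 6.03 CPM in KO and 5.65 in NTC, were close, and the KO range lay inside the NTC range. The first place of NTC tumor 1 and the place of the KO range hold under TMM scaling only. By library totals KO tumors 3 and 2 were above NTC tumor 1 in this sum. Without NTC tumor 1 the NTC tumors reached 9.12 CPM, and 2 of the 5 KO tumors were above that. The NTC median then fell to between 0.0985 and 5.65 CPM, further below that of KO. NTC tumors 2 and 4 each had no read of 3 of the 10 genes (*Plin1*, *Cidec* and *Lep* in the one, *Adipoq*, *Cidec* and *Retn* in the other), and they were otherwise deep libraries of 28544197 and 24145795 reads. In these bulk samples, fewer adipocytes and less of each transcript per adipocyte cannot be told apart.

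The start sites of these genes are described next, and their part in the levels was not tested. Promoter windows of RefSeq (GRCm38.p6), the 250 bases before an annotated start, were given for 7 of the 10 genes, in 11 windows; *Fabp4*, *Lpl* and *Car3* had none. They were searched on both strands for CCAAT (the CCAAT box), TTGCGCAA (a palindromic C/EBP motif), AGGTCA (the PPAR half-site), AGGTCANAGGTCA (its direct repeat, which holds the half-site), TATAAA (the TATA box) and CACGTG (an E-box). The windows printed are those of the 5 adipocyte-restricted genes that have one, at chr16:23146286-23146535 (*Adipoq*, plus strand), chr6:29059971-29060220 (*Lep*, plus strand), chr7:79732777-79733026 (*Plin1*, minus strand), chr6:113435761-113436010 (the first of the 2 windows of *Cidec*, minus strand) and chr8:3655520-3655769 (*Retn*, plus strand), 5′ to 3′ with matches in capitals.
Adipoq: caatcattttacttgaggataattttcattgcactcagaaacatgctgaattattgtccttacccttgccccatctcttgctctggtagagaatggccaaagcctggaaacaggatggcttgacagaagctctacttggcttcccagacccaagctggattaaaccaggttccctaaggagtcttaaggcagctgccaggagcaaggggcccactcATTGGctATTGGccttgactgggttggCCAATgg
Lep: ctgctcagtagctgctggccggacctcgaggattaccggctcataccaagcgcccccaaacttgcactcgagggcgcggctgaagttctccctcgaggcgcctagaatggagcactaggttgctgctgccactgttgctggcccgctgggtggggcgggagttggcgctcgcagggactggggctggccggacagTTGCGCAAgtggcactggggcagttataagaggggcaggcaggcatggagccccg
Plin1: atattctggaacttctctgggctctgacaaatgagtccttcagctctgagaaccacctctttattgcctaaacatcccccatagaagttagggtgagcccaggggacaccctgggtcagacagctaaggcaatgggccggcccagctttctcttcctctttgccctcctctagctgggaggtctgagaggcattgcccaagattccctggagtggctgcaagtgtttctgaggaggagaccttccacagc
Cidec: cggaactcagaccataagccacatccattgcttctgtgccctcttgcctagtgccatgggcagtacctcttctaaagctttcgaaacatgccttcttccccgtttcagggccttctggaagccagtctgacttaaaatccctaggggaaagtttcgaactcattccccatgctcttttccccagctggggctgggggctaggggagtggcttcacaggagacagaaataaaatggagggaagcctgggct
Retn: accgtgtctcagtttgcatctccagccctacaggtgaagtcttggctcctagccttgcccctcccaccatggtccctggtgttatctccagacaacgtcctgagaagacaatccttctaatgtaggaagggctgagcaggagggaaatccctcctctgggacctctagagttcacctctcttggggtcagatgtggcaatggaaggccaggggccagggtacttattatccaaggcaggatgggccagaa

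The *Adipoq* window held CCAAT 3 times, at bases -34 to -30 and -27 to -23 on the opposite strand (read there as ATTGG) and at -7 to -3, counted back from the start. CCAAT is in 33.8% of all 32817 windows of this length. The *Lep* window held the C/EBP palindrome once, at bases -55 to -48, which is in 0.165% of all windows. The windows of *Plin1*, *Cidec* and *Retn* held none of the 6 motifs, so no motif searched was shared by the 5 windows. The direct repeat, in 0.0335% of all windows, was in none of the 11. A match is a run of letters and not evidence of binding, and the windows do not reach distal elements.

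Ratios between these genes within a library do not depend on how libraries were scaled. *Car3* had 3.53 to 7.29 reads per *Adipoq* read in 8 tumors. NTC tumor 4 had no *Adipoq* read to set it against. In KO tumor 4 the ratio was 22.9 (95% interval 16.2 to 33.5, exact binomial, counting error only), from 756 reads of *Car3* and 33 of *Adipoq*. Fast skeletal muscle genes were also highest in that tumor, whereas the 5 slow muscle markers summed to 1.33 CPM there and to 4.31 in NTC tumor 1, their highest. Only 1 of the 5 slow markers had 10 or more reads in either library, so this sum is near the floor. Of 12 fast muscle markers, 11 without *Eno3* (which other cells also express) summed to 234 CPM in KO tumor 4, to 45.6 in KO tumor 3 and to 1.22 to 7.90 in the other 8 tumors. Each of the 12 had at least 10 reads in KO tumors 3 and 4, and 5 to 12 had any read elsewhere, with *Myh4* at 0 in KO tumor 5 and NTC tumors 2, 4 and 5. KO tumor 3, second in the muscle sum, had 6.42 *Car3* reads per *Adipoq* read, and KO tumor 5, with a muscle sum of 2.31 CPM, had 7.29. The part of muscle in the *Car3* level was not tested. Markers of keratinocytes, 10 genes, summed to 43.8 CPM in KO tumor 3 and 13.8 in KO tumor 4, against 0.845 to 5.25 elsewhere.

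The hormones varied against one another as well. *Lep* had 0.542 reads per *Adipoq* read in KO tumor 3 (95% interval 0.405 to 0.721) and 0.353 in KO tumor 2 (0.254 to 0.484). In NTC tumor 3 it had 0.0260 (0.00309 to 0.0971), from 2 reads against 77. The interval of NTC tumor 3 overlapped neither of the others, so counting error does not cover the difference between these libraries. The other 5 tumors with 14 or more *Adipoq* reads lay between. The intervals of KO tumors 1, 4 and 5 and NTC tumor 1 overlapped that of NTC tumor 3. KO tumor 4, for example, had 0.0606 (0.00705 to 0.237), also from 2 reads of *Lep*. *Retn* was likewise low beside *Adipoq* in NTC tumor 3, at 0.0390 (0.00786 to 0.118), against 0.214 to 0.788 in the 7 other tumors with 14 or more *Adipoq* reads. Of those, the interval of KO tumor 5 (0.0395 to 0.768) overlapped that of NTC tumor 3. NTC tumor 3 therefore had adiponectin near that of KO tumor 1 with 3 reads of *Retn* against 24. For *Lep* it had 2 reads against 6, which counting error can cover. Ratios of *Plin1* were from 0.365 in NTC tumor 5 to 2.00 in KO tumor 5, and KO tumor 3 was the only one of these 8 tumors with more *Cidec* than *Adipoq* reads, at 1.11 (0.881 to 1.41).

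**Figure D2:**
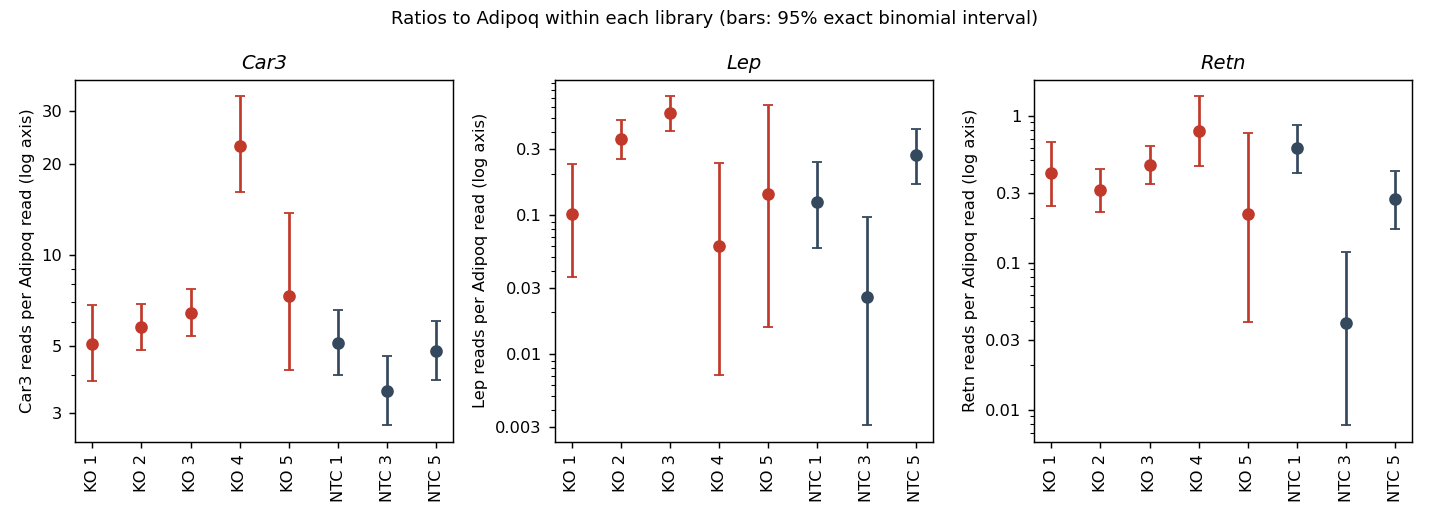
Reads of *Car3*, *Lep* and *Retn* per read of *Adipoq* in the 8 tumors with 14 or more *Adipoq* reads, on log axes, with 95% exact binomial intervals that cover counting error only. KO tumor 4 stands above the others for *Car3* at 22.9, and NTC tumor 3 is lowest for *Lep* at 0.0260 and *Retn* at 0.0390. Its *Lep* interval overlaps those of KO tumors 1, 4 and 5 and NTC tumor 1, and its *Retn* interval that of KO tumor 5.

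The genes shared with other cells were higher on average in the KO tumors, but none passed the test. *Lpl* (chr8:68880491-68907448, plus strand), which frees fatty acids from lipoproteins, had the largest log2 fold change of the 9 fitted genes over 10 tumors. It was at 288, 713, 124, 131 and 596 CPM in KO tumors 1 to 5 and at 367, 54.0, 73.9, 37.0 and 130 CPM in NTC tumors 1 to 5. KO tumors 2 and 5 lay above every NTC tumor, and NTC tumor 1 above the other 3 KO tumors. By library totals alone NTC tumor 1 was at 229 CPM, below KO tumor 1 at 301. Without NTC tumor 1, 4 of the 5 KO tumors exceeded all NTC tumors, and KO tumor 3 lay just below NTC tumor 5. Means were 370 ± 271 CPM in KO and 132 ± 136 in NTC (SD, n = 5 each). KO against NTC gave a log2 fold change of 1.49 ± 0.71 over 10 tumors (SE, edgeR adjusted p = 0.594) and 2.28 ± 0.60 over 9 (edgeR adjusted p = 0.142). DESeq2 without a filter over the 9 tumors, an alternative added after the data were seen, called *Lpl* at 2.33 ± 0.54 (adjusted p = 0.00184) among the 4.05% of 18601 genes it called, and it called no other adipocyte gene.

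*Fabp4* (chr3:10204088-10208576, minus strand) carries fatty acids inside the cell. It was at 70.3, 128, 79.5, 24.7 and 110 CPM in KO tumors 1 to 5 and at 158, 14.2, 56.6, 8.74 and 31.8 CPM in NTC tumors 1 to 5. NTC tumor 1 was the highest, and KO tumor 4 was the only KO tumor below any of NTC tumors 3 and 5. By library totals alone KO tumors 2 and 5, at 129 and 107 CPM, were above NTC tumor 1 at 98.8. The fitted log2 fold change was 0.63 ± 0.72 over 10 tumors (SE, edgeR adjusted p = 0.825) and 1.53 ± 0.57 over 9 (edgeR adjusted p = 0.204).

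*Pparg* (chr6:115360951-115490399, plus strand) was at 9.39, 25.5, 8.02, 4.11 and 19.8 CPM in KO tumors 1 to 5 and at 13.1, 2.27, 6.47, 1.22 and 10.7 CPM in NTC tumors 1 to 5. KO tumors 2 and 5 were above every NTC tumor and the other 3 were within the NTC range. In the fit the log2 fold change was 1.01 ± 0.67 over 10 tumors (SE, edgeR adjusted p = 0.693) and 1.33 ± 0.67 over 9 (edgeR adjusted p = 0.293).

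*Lipe* (chr7:25379527-25398710, minus strand) varied least, with a 5.02-fold range over the 10 tumors. It was at 9.96, 18.6, 12.3, 5.52 and 14.2 CPM in KO tumors 1 to 5 and at 11.7, 3.71, 7.92, 4.03 and 7.94 CPM in NTC tumors 1 to 5. KO tumors 2, 3 and 5 exceeded all NTC tumors, and only KO tumor 4 was below any of NTC tumors 3 and 5. Between the groups the log2 fold change was 0.79 ± 0.38 over 10 tumors (SE, edgeR adjusted p = 0.596) and 1.00 ± 0.36 over 9 (edgeR adjusted p = 0.195). *Lipe* shares 918 exonic bases with *4732471J01Rik* on the opposite strand, and since the strand setting of the counting is not given, reads of the pair cannot be told apart there.

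**Figure D3:**
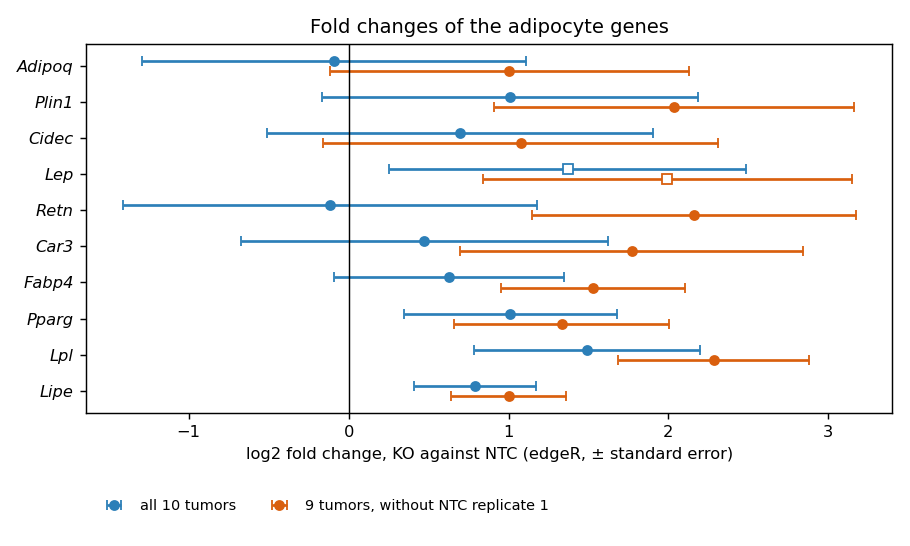
Log2 fold change of KO against NTC for each adipocyte gene with its standard error, from edgeR over all 10 tumors and over 9 tumors without NTC tumor 1. Open squares mark *Lep*, taken from fits without the low-count filter. Over 10 tumors *Adipoq* and *Retn* lie just below 0, and over 9 tumors all genes lie above 0, with standard errors of 0.36 to 1.24.

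Over 10 tumors the median log2 fold change of the 9 fitted genes was 0.70, beside 0.01 over all genes tested, with 7 above and 2 below 0. Over 9 tumors it was 1.53, beside -0.02 over all genes, with 9 above 0. Macrophage markers had similar medians, of 0.88 over 10 tumors and 1.62 over 9, with 0 of 10 called by edgeR in either and 5 by DESeq2 without a filter over 9 tumors, which called 4.05% of all genes. Pan-leukocyte markers had medians of 0.84 and 1.45, fibroblast markers of 0.31 and 1.55, and the 6 neutrophil markers tested of 0.09 and 2.26. Fast muscle markers had 2.71 over 10 tumors and 4.59 over 9, from 3 and 5 of 12 markers that passed the filter. Markers near 0 in NTC can pass it through the KO tumors where they are high, so these medians are not comparable with the others. Without *Eno3* the fast muscle sum was 234 CPM in KO tumor 4, 45.6 in KO tumor 3 and 2.31 to 7.90 in the other KO tumors. Keratinocyte markers were likewise highest in KO tumors 3 and 4. The same DESeq2 fit called 9 of the 12 fast muscle markers higher in KO, 4 of 10 pan-leukocyte, 3 of 10 neutrophil, 3 of 10 keratinocyte and 1 of 10 fibroblast markers, and 0 of the endothelial, melanoma cell, slow muscle and sebaceous gland markers. Endothelial markers had medians of 0.19 and 0.55 and melanoma cell markers of -0.15 and -0.30.

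Within the tumors the 4 shared genes and the restricted genes did not rank alike. The summed level of *Fabp4*, *Lpl*, *Pparg* and *Lipe* was 377.6, 885, 224, 165 and 741 CPM in KO tumors 1 to 5. In NTC tumors 1 to 5 it was 550, 74.2, 145, 51.0 and 180 CPM. The 10 macrophage markers, among them *Adgre1*, *Csf1r* and *C1qa*, summed to 1900, 3898, 1124, 963 and 4218 CPM in KO tumors 1 to 5. In NTC tumors 1 to 5 they summed to 3599, 380, 1061, 310 and 1363 CPM. The 4 tumors highest in these markers (KO tumors 5 and 2, NTC tumor 1 and KO tumor 1) were also the 4 highest in the 4 shared genes, and NTC tumors 2 and 4 were the lowest in both. This order was not particular to macrophages, as the same 4 tumors were highest and the same 2 lowest in the summed fibroblast (58.3 to 6178 CPM), pan-leukocyte (491 to 2988 CPM) and neutrophil (3.32 to 114 CPM) markers. All 10 macrophage markers had reads in every tumor, and their part in the level of the shared genes was not tested.

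KO tumors 3 and 5 separated the gene groups. Of the 10 tumors, KO tumor 5 ranked 1 in macrophage markers, 2 in the shared genes and 8 in the restricted genes, with 14 reads of *Adipoq*. KO tumor 3 ranked 2 in the restricted genes, 5 in the shared genes and 6 in macrophage markers. *Lpl* accordingly had 958 reads per *Adipoq* read in KO tumor 5 (95% interval 571 to 1752) and 26.0 in KO tumor 3 (22.0 to 30.9). *Pparg* had 31.8 reads per *Adipoq* read in the former (18.7 to 58.6) and 1.68 in the latter (1.36 to 2.08).

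**Figure D4:**
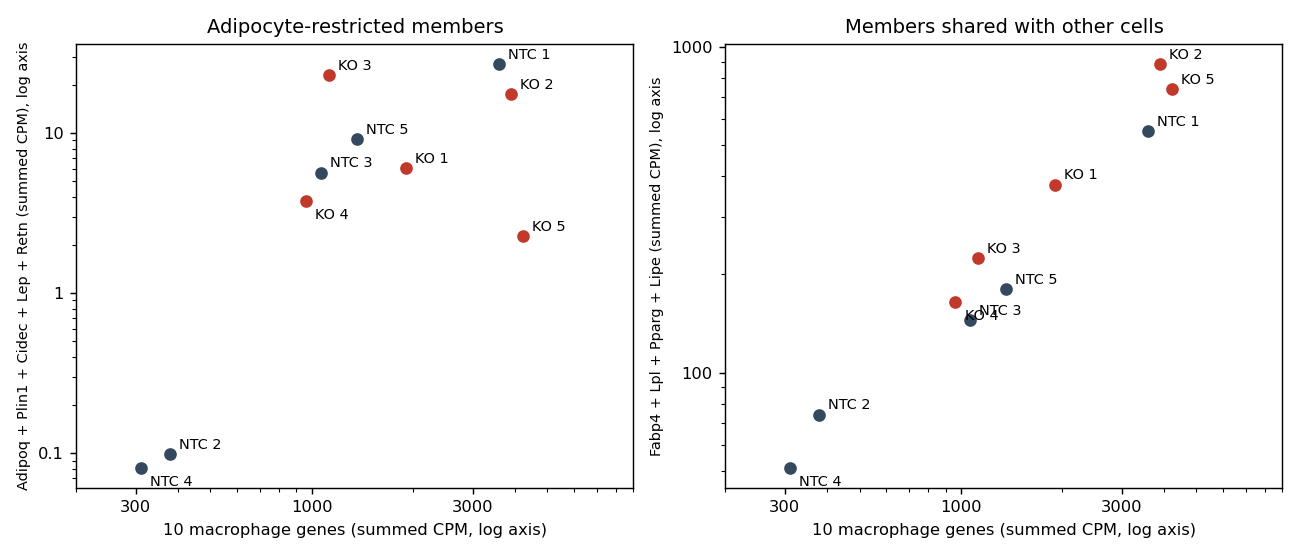
Summed CPM of 5 adipocyte-restricted genes (left) and of the 4 genes shared with other cells (right) in each tumor, against the summed CPM of 10 macrophage markers, on log axes. On the right the points lie close to a line from NTC tumor 4 to KO tumors 2 and 5, whereas on the left KO tumor 5 lies low at 2.27 CPM and KO tumor 3 high at 22.9 CPM.

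Per kilobase of exon, the order of mean levels in KO tumors was *Lpl* at 35.4 CPM per kb, *Fabp4* at 18.4, *Car3* at 7.56, *Pparg* at 4.53, *Adipoq* at 2.15, *Lipe* at 2.06, *Cidec* at 1.19, *Retn* at 0.773, *Plin1* at 0.668 and *Lep* at 0.301. In NTC tumors it ran from *Lpl* at 12.6 and *Fabp4* at 12.0 CPM per kb to *Lep* at 0.140. Without NTC tumor 1 the NTC means of *Lpl* and *Fabp4*, 132 and 53.9 CPM before division by length, fell to 73.7 and 27.8 CPM. Lengths are the union of exons of all annotated transcripts, which for *Fabp4* spans the whole gene of 4489 bases and so lowers its value. Neighbours in the KO order differed by less than the SD of the higher gene, other than *Fabp4* and *Car3* and, narrowly, *Lipe* and *Cidec*. Between tumors a single gene had a coefficient of variation of 40.2% (*Lipe*) to 120% (*Lep*) within KO and 46.8% (*Lipe*) to 186% (*Retn*) within NTC. In CPM, *Lpl* and *Fabp4* made up 73.4% to 94.5% of the sum of the 10 genes in a tumor, so the sum over all 10 follows this pair. The 6 restricted genes made up 0.353% (NTC tumor 2) to 19.3% (KO tumor 3) of that sum.

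Genes whose pattern was most like that of the restricted genes were sought by Pearson correlation of log2 CPM over the 10 tumors with the mean standardized level of *Adipoq*, *Plin1*, *Cidec*, *Retn* and *Car3*. Among 15821 genes, *Cfd*, the adipocyte protease adipsin, ranked 2 (r = 0.977) and *Plin4*, a droplet coat protein, ranked 6 (r = 0.960). *Cfd* was at 7.42, 27.4, 47.8, 7.93 and 2.76 CPM in KO tumors 1 to 5 and at 46.5, 0.689, 15.7, 0.244 and 16.7 CPM in NTC tumors 1 to 5. As for *Adipoq*, KO tumors 2 and 3 and NTC tumor 1 were the highest and NTC tumors 2 and 4 the lowest. *Pck1*, which feeds glycerol synthesis in fat, ranked 50 (r = 0.874) and *Thrsp*, a lipogenic factor, 54 (r = 0.872). The shared genes stood further down, with *Fabp4* at 204 (r = 0.801), *Lipe* at 328 (r = 0.770), *Pparg* at 425 (r = 0.752) and *Lpl* at 1572 (r = 0.622), and *Cebpa*, the partner of *Pparg* in adipogenesis, at 1268 (r = 0.650). Other genes used by fat cells were not near the restricted pattern over 10 tumors. *Scd1*, a fatty acid desaturase, was at 662 (r = 0.717, and 0.649 over 9 tumors) and *Gpd1*, which makes glycerol phosphate, at 5517 (r = 0.246, and 0.697 over 9). *Slc2a4*, the insulin-responsive glucose transporter, was at 10090 (r = -0.197, and 0.017 over 9) and *Klf15*, a transcription factor, at 10762 (r = -0.252, and 0.214 over 9). The sign of the last pair thus turned without NTC tumor 1.

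Outside the lists used here, the 10 genes most like the restricted ones were *Gpx8*, *Slco2b1*, *Lrg1*, *Amy1*, *Fxyd6*, *Cd300lg*, *Mcpt4*, *Cma1*, *Akr1c14* and *Cd209b*, with r from 0.920 to 0.969. *Mcpt4* and *Cma1* encode proteases of connective tissue mast cells, and *Lrg1* a secreted glycoprotein. Of these 10, 6 were again among the 10 over 9 tumors. The points of each correlation are the same 10 libraries, among which NTC tumors 2 and 4 are low for every gene of the reference.

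The other genes of fat metabolism did not pass the test either. Of 80 genes in 8 lists, 69 were tested, and 0 were called by edgeR over 10 or 9 tumors. At an unadjusted p under 0.05, 7 of the 69 were higher and 6 lower in KO over 10 tumors, beside 3.99% and 4.85% of all genes. Over 9 tumors 20 were higher and 7 lower, beside 12.0% and 8.10%. DESeq2 over 10 tumors called 1 of them, *Ppargc1a*, among the 0.609% of 15763 genes it called. DESeq2 without a filter over 9 tumors called 10 of the 80, higher for *Vldlr* (adjusted p = 6.7e-06), *Cd36* (0.000124), *Cebpa* (0.00632), *G0s2* (0.0103), *Car4* (0.0187), *Pck1* (0.0291) and *Fabp5* (0.0354) and lower for *Ppargc1a* (7.5e-05), *Car8* (0.00359) and *Mgll* (0.0159), where it called 4.05% of all genes. Over all 10 tumors *G0s2*, an inhibitor of the first triglyceride lipase, had a log2 fold change of -0.44 ± 0.84 by edgeR, so its sign turned without NTC tumor 1.

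In lipolysis, *Abhd5*, the co-activator of the first triglyceride lipase that *Plin1* holds back, was at 35.0, 38.1, 34.0, 31.7 and 38.9 CPM in KO tumors 1 to 5 and at 50.8, 56.1, 48.5, 46.6 and 48.0 CPM in NTC tumors 1 to 5. The groups did not overlap and *Abhd5* was lower in KO, as were 1.47% of genes tested. Its log2 fold change was -0.49 ± 0.09 (SE, edgeR adjusted p = 0.128). *Pnpla2*, that lipase itself, had a log2 fold change of 0.52 ± 0.15 (adjusted p = 0.289), and *Mgll*, which completes the breakdown of triglyceride, -1.15 ± 0.39 (adjusted p = 0.401). *Plin4* had the largest log2 fold change of the list, 1.33 ± 1.18 over 10 tumors (adjusted p = 0.768) and 2.04 ± 1.21 over 9 (adjusted p = 0.364). The median of the 9 genes tested was 0.05. *Plin2*, the droplet coat of most cells, was at 411 ± 237 CPM in KO and 333 ± 248 in NTC (SD, n = 5 each). *Cidea*, the brown fat relative of *Cidec*, had 3 reads in all 10 libraries together.

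In fatty acid and triglyceride synthesis, *Lpin1*, which makes diacylglycerol, was at 32.8, 33.1, 40.0, 32.0 and 31.6 CPM in KO tumors 1 to 5 and at 24.0, 18.5, 27.3, 18.5 and 19.8 CPM in NTC tumors 1 to 5. The groups did not overlap, as for 0.866% of genes that were higher in KO, and the log2 fold change was 0.65 ± 0.13 (SE, edgeR adjusted p = 0.137). *Gpam*, which starts glycerolipid synthesis, did not overlap either, at 47.1 ± 10.3 CPM in KO and 34.6 ± 3.94 in NTC (SD, n = 5 each, adjusted p = 0.401). *Fasn* and *Acly*, the enzymes of fatty acid synthesis with the most reads, had log2 fold changes of 0.01 ± 0.32 and 0.04 ± 0.21 over 10 tumors and of -0.21 ± 0.27 and -0.11 ± 0.20 over 9. *Pck1* had the largest of the list, 2.61 ± 1.06 (adjusted p = 0.505), from 150 reads or fewer per library. The median of the 14 genes was 0.15.

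In the brown fat list, *Ppargc1a*, a co-activator of mitochondrial genes that melanoma cells can also express, was at 146, 129, 127, 152 and 94.96 CPM in KO tumors 1 to 5. NTC tumors 1 to 5 were at 204, 248, 248, 431 and 236 CPM. The groups did not overlap, as for 1.47% of genes that were lower in KO, and the log2 fold change was -1.07 ± 0.21 (SE, edgeR adjusted p = 0.137) and -1.09 by DESeq2 (adjusted p = 0.00065). *Ucp1*, the defining gene of brown fat, had 1 read in all 10 libraries together. *Prdm16*, a regulator of brown fat identity, was at 88.4 ± 29.4 CPM in KO and 119 ± 31.3 in NTC (SD, n = 5 each). *Cox7a1*, a mitochondrial subunit, had a log2 fold change of -1.15 ± 0.39 (edgeR adjusted p = 0.401), and the median of the 4 genes tested was -0.75.

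In lipid uptake, *Cd36*, the fatty acid translocase that macrophages and endothelium also carry, was at 418, 453, 98.0, 123 and 760 CPM in KO tumors 1 to 5 and at 699, 49.0, 69.1, 33.9 and 79.9 CPM in NTC tumors 1 to 5. NTC tumor 1 was again among the high tumors, and without it the groups did not overlap, as for 2.71% of genes that were higher in KO over 9 tumors. In the fits *Cd36* had a log2 fold change of 1.00 ± 0.90 over 10 tumors (SE, edgeR adjusted p = 0.772) and 2.63 ± 0.59 over 9 (edgeR adjusted p = 0.112). *Fabp5*, the relative of *Fabp4* found in many cells, had 0.60 ± 0.47 over 10 tumors and 1.11 ± 0.35 over 9 (adjusted p = 0.177). *Gpihbp1*, which holds lipoprotein lipase on capillaries, had -0.06 ± 0.42, and *Angptl4*, an inhibitor of that lipase, had 0.17 ± 0.80 over 10 tumors and 1.36 ± 0.58 over 9 (adjusted p = 0.232). *Vldlr*, a lipoprotein receptor, had 0.98 ± 0.54 over 10 tumors and 1.74 ± 0.31 over 9 (adjusted p = 0.0644).

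Among the transcription factors, *Cebpa* was at 35.7, 63.2, 21.3, 14.5 and 72.9 CPM in KO tumors 1 to 5 and at 31.9, 5.91, 12.0, 5.53 and 18.9 CPM in NTC tumors 1 to 5. KO tumors 2 and 5 were the highest, as they were for *Pparg*. KO against NTC gave a log2 fold change of 1.51 ± 0.58 (SE, edgeR adjusted p = 0.481). *Nr1h3*, a sterol receptor of macrophages and fat, had 1.47 ± 0.72 (adjusted p = 0.601). *Srebf1* and *Rxra*, at 67.9 ± 14.2 and 67.9 ± 10.8 CPM in KO (SD, n = 5), had 0.04 ± 0.18 and 0.33 ± 0.13 over 10 tumors (adjusted p = 0.956 and 0.505) and -0.11 ± 0.15 and 0.36 ± 0.12 over 9.

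The receptors of the fat hormones were measured as well. *Adipor1* was at 156 ± 22.8 CPM in KO and 146 ± 15.7 in NTC and *Adipor2* at 117 ± 10.3 and 120 ± 13.2 (SD, n = 5 each), with log2 fold changes of 0.09 ± 0.12 and -0.04 ± 0.10. *Lepr*, the leptin receptor, was at 0.783 ± 0.264 CPM in KO and 1.19 ± 1.68 in NTC, with a log2 fold change of -0.45 ± 0.76 over 10 tumors that turned to 0.77 ± 0.43 over 9 (adjusted p = 0.339). *Nampt*, with the most reads of this list, was at 525 ± 82.8 and 587 ± 45.8 CPM. The resistin relatives *Retnla* and *Retnlg*, which myeloid cells make, had 0.28 ± 0.88 and 0.77 ± 0.60. Of the hormone and insulin response genes, *Adrb1* had the largest log2 fold change, 0.90 ± 1.15, followed by *Pde3b*, the phosphodiesterase through which insulin restrains lipolysis, with 0.46 ± 0.74 (2.05 ± 1.03 and 1.41 ± 0.57 over 9 tumors, adjusted p = 0.293 and 0.221), *Akt2* and *Insr* had the most reads with -0.04 ± 0.07 and 0.05 ± 0.12, and *Adrb3*, the adipocyte β-adrenoceptor, had 31 reads in all. Of the relatives of *Car3*, *Car14*, at 126 ± 41.5 CPM in KO, and *Car13* had the most reads, with -0.04 ± 0.29 and -0.12 ± 0.13. *Car4* had the largest, 1.34 ± 0.48 (adjusted p = 0.434), followed in size by *Car8* with -0.96 ± 0.35 (adjusted p = 0.434), and *Car2* had 0.26 ± 0.55 over 10 tumors and 0.82 ± 0.42 over 9 (SE throughout, edgeR).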

How the data were processed

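Bulk total RNA of 10 tumors was sequenced on an Illumina NovaSeq. The authors deposited raw read counts per gene, and their processing notes name FastQC, Trimmomatic, HISAT2, HTSeq and the build mm10. The annotation and the strand setting are not given in the sources used here. The 5 HTSeq summary rows were kept out of library sizes and tests; they held 35.3% to 64.1% of all counted reads.

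Counts were fitted with edgeR 4.0.16 (TMM, filterByExpr, quasi-likelihood test) in R 4.3.3 over all genes, and p-values were adjusted over all genes tested. DESeq2 1.42.0 and limma 3.58.1 were alternatives. The edgeR step was tested on simulated data before use. p-values set the difference between KO and NTC against the spread between these tumors. They do not cover differences between knockout lines, since the KO group may stand for a single line. Thresholds followed the methods of the study. Named genes were the 10 members, those of each list with a direct tie to a member, the 2 with the largest fold changes and the 2 with the highest levels, and the 10 most correlated genes. A gene that this rule names is not reported here. Members and lists were chosen with earlier results of these data known. Positions and exon lengths are from GENCODE M21 on GRCm38.

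Where 0 reads were counted, 3 reads were taken as the limit. Group labels share replicate numbers, but same-numbered tumors correlated at -0.29 to 0.63, and the numbers were not taken as pairs.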

Additional observations from a re-analysis of the deposited data

Results flagged for a closer look

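NTC tumor 1 lay far from the other NTC tumors in 10 values. *Retn* was at 6.47 CPM there with the next NTC tumor at 0.902, *Lpl* at 367 CPM with the next at 130, and *Car3* at 55.1 CPM with the next at 16.03. The summed level of *Fabp4*, *Lpl*, *Pparg* and *Lipe* was 550 CPM with the next at 180, and that of the 11 fast muscle markers without *Eno3* was 7.41 CPM with the next at 1.96. Summed markers of slow muscle were at 4.31 CPM there with the next at 1.63, of fibroblasts at 6178 with the next at 1671, of neutrophils at 114 with the next at 15.7 and of sebaceous gland at 414 with the next at 283. Only 1 of the 5 slow muscle markers had 10 or more reads there. Melanoma cell markers were low there, at 14447 CPM with the next at 24359. The fast muscle sum was 234 CPM in KO tumor 4 with the next KO tumor at 45.6 CPM, in the tumor whose *Car3* was high beside its *Adipoq*. In each case the gap to the nearest tumor was above 0.71 of the range of the group, the 95% critical value of Dixon's test for 5 samples. The values flagged were 11 of 44 examined, all TMM-scaled, which raises NTC tumor 1 (factor 0.628). By library totals *Lpl* was at 229 CPM there with the next NTC tumor at 141, and *Car3* at 34.4 with the next at 17.4. Both gaps then fell below 0.71 of the range. For *Retn*, at 4.03 CPM with the next at 0.977, the gap stayed above it. Dixon's test marks about 1 in 20 groups by chance where values are normal and separate, but CPM is skewed, *Lpl* makes up most of the 4-gene sum and 10 of the 11 come from 1 library, so the count has no chance rate to be set against.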

How the results depend on the processing

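NTC tumor 1 and the tool moved many results, but no setting mattered most for every gene. Leaving out each tumor in turn, edgeR called 0 adipocyte genes and 0 genes of the other lists, and over all genes 1 to 2 higher and 0 to 15 lower in KO; the 2 and the 15 came without NTC tumor 1. *Adipoq* ran from -0.49 to 1.00 and *Retn* from -0.47 to 2.16, both highest without NTC tumor 1, and *Adipoq* was also positive without KO tumors 4 (0.11) and 5 (0.17), *Retn* without KO tumor 5 (0.17). *Plin1* ran from 0.27, without KO tumor 3, to 2.04, *Cidec* from 0.06, without KO tumor 3, to 1.17, without NTC tumor 5, *Car3* from 0.15, without NTC tumor 2, to 1.77, *Fabp4* from 0.35, without NTC tumor 4, to 1.53, *Lpl* from 1.11, without KO tumor 2, to 2.28, *Pparg* from 0.64, without KO tumor 2, to 1.33 and *Lipe* from 0.58, without KO tumor 2, to 1.00; unless named, the highest came without NTC tumor 1. *Lep* passed the filter in 6 of these fits, at 0.96 to 1.62. Over all 10 tumors *Adipoq* and *Retn* turned positive with library totals only (0.28 and 0.43), with no filter (0.051 and 0.046), with limma voom (2.30 and 2.18) and with replicate numbers as a block (0.93 and 1.69), and over 9 tumors with DESeq2 without a filter (1.03 and 2.20). The cause was not tested. The other 8 genes kept a positive sign under every alternative run that fitted them, but limma voom raised *Car3* from 0.47 to 2.93, *Plin1* from 1.01 to 2.74, *Cidec* from 0.70 to 2.30 and *Fabp4* from 0.63 to 1.41, and the replicate block raised them to 1.86, 1.73, 1.36 and 1.18. Genes called higher and lower were 24 and 72 by DESeq2, 0 and 7 by limma voom, 0 and 6 where every tumor needed 10 counts (4 adipocyte genes remained), and 618 and 136 by DESeq2 without a filter over 9 tumors, a setting added after the data were seen. The last called 1 adipocyte gene (*Lpl*) and 35 genes of the other lists, and DESeq2 over 10 tumors 1 (*Ppargc1a*). Genes called lower were 0 with library totals, 4 with robust dispersion, 4 with no fold threshold and 0 with the replicate block, which changed no call of an adipocyte gene. *Lep*, with 0 to 77 reads, and the 0 to 7 reads of the restricted genes in NTC tumors 2 and 4 limit what those levels can show.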
